A study of Mus musculus with 9 samples.

Results

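The genes described here are 28 genes of cholesterol synthesis and its control, taken by symbol from a list set by gene function. They comprise 8 enzymes of the mevalonate pathway, 11 enzymes that make cholesterol from farnesyl diphosphate by way of squalene, 5 genes of the SREBP regulators and their sensors, and 4 genes of sterol transport and receptor turnover. Each of the 28 symbols stood once in every file, among 34619 unique symbols. All 28 reached 1 FPKM (read fragments relative to gene length and library depth) in at least 3 libraries, as did 13743 genes in all.

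Cells make cholesterol from acetyl-CoA in a long chain of enzymes. Cytosolic steps build the isoprenoid farnesyl diphosphate, which is joined to squalene, folded into lanosterol and trimmed to cholesterol on the endoplasmic reticulum. SREBP2, encoded by Srebf2, is the transcription factor that drives nearly all of these genes: when sterols are scarce, the escort protein SCAP carries it to the Golgi for cleavage, and when sterols are plentiful, INSIG proteins hold it back. The chain therefore tends to be expressed as a block. In the uterus the pathway supplies membrane for the epithelium and stroma that grow and regress in each cycle.

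The libraries were made from the uterus of wild-type females of the outbred mouse stock CD-1 (ICR), bought at 7 to 8 weeks of age, acclimatized for 1 week and kept on feed free of estrogen. For 28 days the controls received corn oil alone by gavage, and the exposed groups received 300 µg of bisphenol B (BPB) or bisphenol AF (BPAF) per kg body weight each day. Both compounds have a pair of phenol rings joined through 1 carbon, which carries a methyl and an ethyl group in BPB and trifluoromethyl groups in BPAF. The title of the series names uterine disease risk as its concern, and its design sets the exposed groups against the control. Each group had 3 libraries, named here by group and replicate number. The labels do not say whether the 3 came from separate mice, so p-values measure only the spread between these libraries, which may be technical. They give no stage of the estrous cycle. Messenger RNA was read from whole tissue, so a smaller share of cells of 1 type and less RNA per cell cannot be told apart.

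The libraries rested on 12620196 to 15616774 reads and detected 11614 to 13105 genes at 1 FPKM or more. Whole reads could be recovered for all 28 genes, from 84 reads of Hsd17b7 in BPAF 3 upward. Counting error is small beside the wide spreads within control and BPAF, but less so where libraries lie close, as in BPB. The library control 3 stood apart with the fewest genes and with 34.1% of its summed FPKM in mitochondrial protein genes, against 14.0% to 27.0% in the other libraries. All 8 markers of the uterus were above 0 in every library. At 1 FPKM or more there were 7 of them in control 2 and in BPB 3, and 8 in each other library. Of 12 markers of urothelium, the lining of the urinary tract, all 12 reached 1 FPKM in BPB 1, 2 and 3 and in BPAF 1. Their summed FPKM was 1749 to 2957 in BPB and 1474 in BPAF 1, against 29.7 to 84.2 in controls and 11.2 and 16.1 in BPAF 2 and 3. Upk3a, a urothelial surface gene, was listed at 0 in all controls and in BPAF 2 and 3.

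Most synthesis enzymes were at their highest in control 1 or 2, and many at their lowest in BPAF 3. The mean log2(FPKM + 1) over the 19 enzymes was 4.04, 3.70 and 3.10 in controls 1, 2 and 3. It was 2.88, 3.15 and 3.01 in the BPB libraries and 3.06, 3.48 and 2.33 in the BPAF libraries. Controls 1 and 2 lay above all exposed libraries, whereas control 3 lay among them. Control 1 held the highest value of 12 of the 19 enzymes, or 63.2%, where it held the highest value of 9.82% of all tested genes. BPAF 3 held the lowest value of 13 of the 19, or 68.4%, against 9.59% of all tested genes. Control 3, low for genes in general, held the lowest value of 3 of the 19, or 15.8%, against 39.85% of all tested genes. Its mean log2 deviation from the 9-library mean was -0.09 for the enzymes and -0.27 for all tested genes. All 19 enzymes were above their own 9-library mean in control 1, 18 in control 2 and 8 in control 3, and between 2 and 7 in each exposed library other than BPAF 2, where 16 were. Some enzymes had another order: Ggps1 was highest in control 3, and Pmvk had its highest BPAF value in BPAF 3. The enzymes varied little within BPB and widely within control and BPAF: the median ratio of the highest to the lowest library was 1.34 in BPB, 2.29 in control and 2.43 in BPAF, and it reached 10.5 for Idi1 in BPAF. The median SD of log2(FPKM + 1) was 0.18, 0.48 and 0.58 in these groups for the enzymes, and 0.27, 0.42 and 0.35 for all tested genes.

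**Figure D1:**
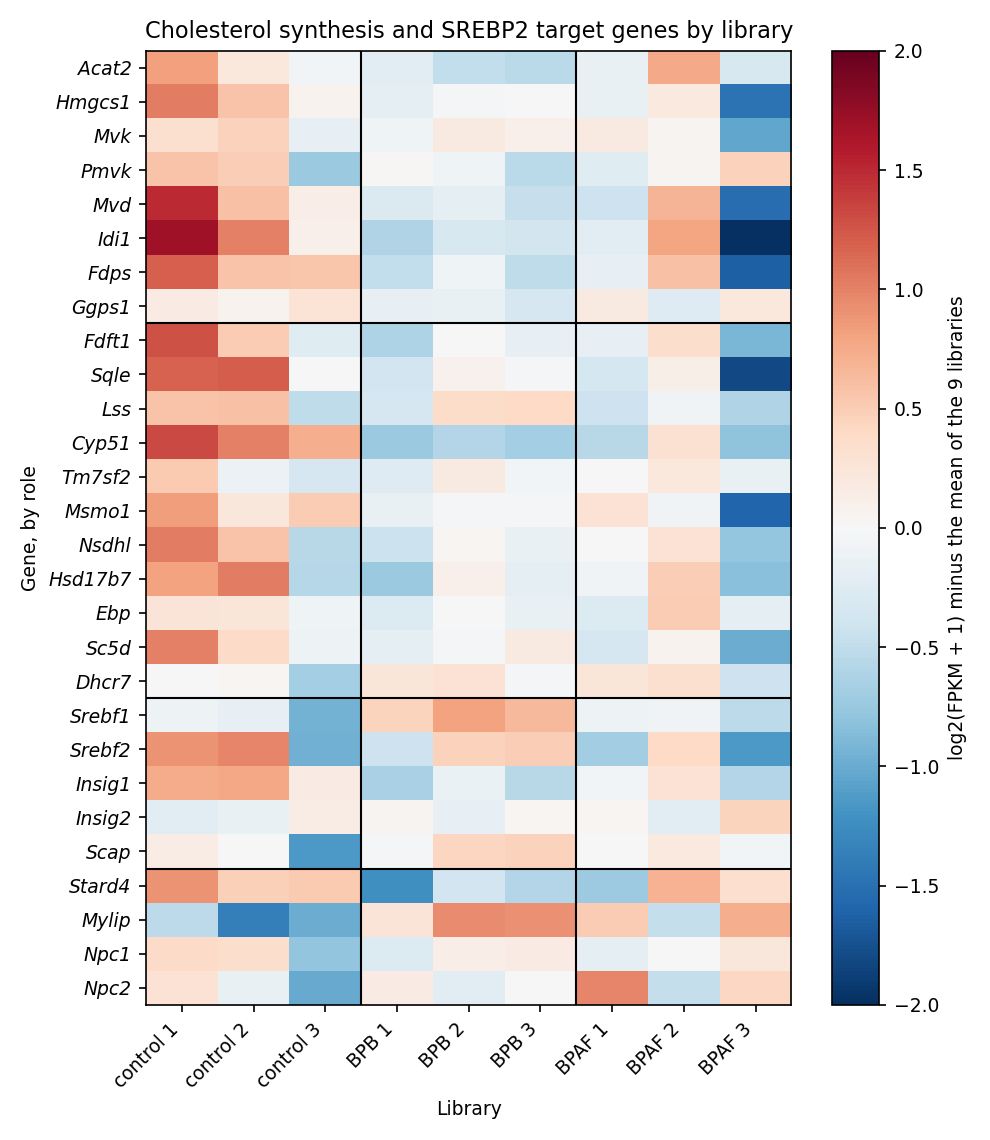
Colour shows log2(FPKM + 1) of each of the 28 genes (rows, grouped by role) in each of the 9 libraries (columns) minus the mean of that gene over the 9 libraries, on a scale from -2 to 2. All 19 enzyme rows are above their mean in control 1, where 12 are highest, and 13 are lowest in BPAF 3, while Mylip and Srebf1 run the other way in BPB.

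Marker lists of other cell types and states differed between the same libraries. The 8 estrogen-induced epithelial genes, which include the secreted lactoferrin gene Ltf, had a mean log2(FPKM + 1) of 6.93, 6.02 and 5.78 in the controls, 3.01, 3.84 and 2.02 in BPB, and 3.93, 5.36 and 2.41 in BPAF. Their summed FPKM was 838 to 1992 in control, 35.7 to 253 in BPB and 50.3 to 555 in BPAF, with Sprr2b listed at 0 in BPAF 3. Within BPAF, library 2 had the highest and library 3 the lowest mean log2(FPKM + 1) of both these genes and the synthesis enzymes, though the summed FPKM of the estrogen-induced genes was highest in BPAF 1 (555, against 509.7 in BPAF 2). The 12 mitosis genes averaged 2.28, 3.27 and 2.95 in control, 2.16, 1.59 and 1.48 in BPB, and 3.10, 3.56 and 1.65 in BPAF, with a summed FPKM of 56.4 to 126 in control, 25.2 to 49.6 in BPB and 30.1 to 157 in BPAF. Adipocyte markers averaged 2.37 to 2.63 in control, 5.12, 4.07 and 2.35 in BPB, and 4.72, 0.14 and 4.30 in BPAF, where 4 of 7 were at 0 in BPAF 2. Smooth muscle markers averaged 8.69, 9.18 and 8.22 in control, 9.45, 9.66 and 10.22 in BPB, and 8.19, 8.17 and 6.72 in BPAF, where BPAF 3 was the lowest library as it was for the enzymes. Interferon-stimulated genes averaged 6.79 in control 1, 3.35 and 3.72 in controls 2 and 3, 1.91 to 2.63 in BPB and 2.80 to 3.50 in BPAF. The part of these groups in the levels of the cholesterol genes was not tested. Urothelial RNA and BPB exposure cannot be told apart for BPB against control, since all 3 BPB libraries hold those markers and no control does at that level. Of the BPAF libraries with urothelial markers near or below the control level, BPAF 2 had the highest enzyme mean of the exposed libraries (3.48) and BPAF 3 the lowest of all 9 (2.33), and BPAF 1, with high markers, lay between them (3.06).

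**Figure D2:**
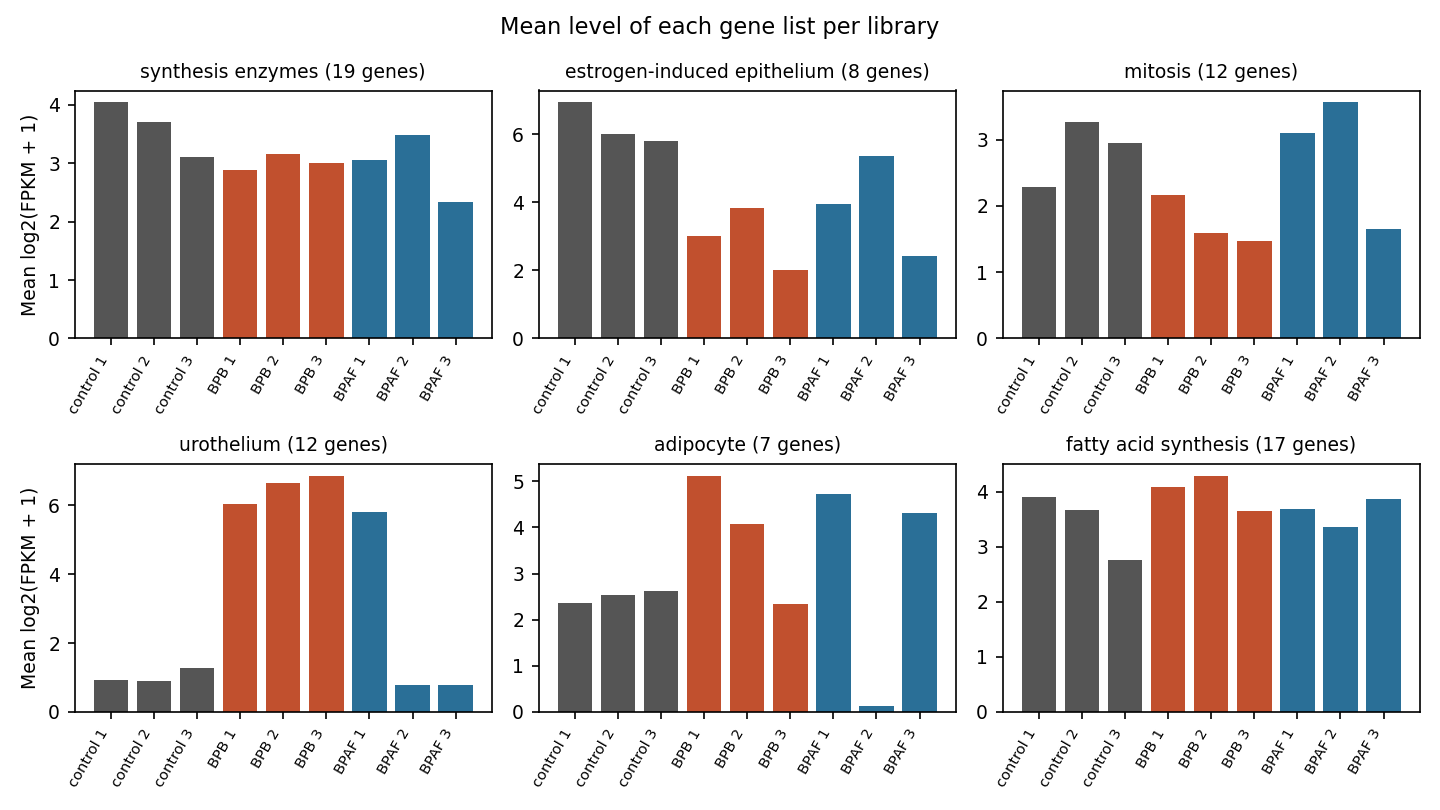
Bars give the mean log2(FPKM + 1) over the genes of a list in each of the 9 libraries, 1 panel per list. The synthesis enzymes run from 4.04 in control 1 to 2.33 in BPAF 3, the estrogen-induced genes are highest in the controls, and the urothelial genes are high in BPB 1, 2 and 3 and BPAF 1 alone.

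In BPB uteri, Cyp51 was lower than in control by a factor of 3.50, and most other enzymes of the chain had lower means. Limma called 1 of the 28 genes after Benjamini-Hochberg adjustment over all 13743 genes, where it called 2.55% of all tested genes, 0.502% as lower and 2.05% as higher. Of the 19 enzymes 18 had a lower mean in BPB, against 36.5% of all tested genes. The median log2 difference was -0.59 for the enzymes and -0.42 for all 28 genes, against 0.15 for all tested genes. For 8 enzymes and 10 of the 28 genes every BPB library lay below every control library, as it did for 6.1% of all tested genes, and for 2 of the 28 every BPB library lay above, against 19.5% of all tested genes. At an unadjusted p under 0.05 there were 4 lower and 2 higher genes of the 28, against 4.6% and 12.8% of all tested genes. Scaling the libraries by their median ratios moved the median of all genes from 0.15 to -0.06. It left 18 enzymes lower, where 7589 of the 13743 tested genes were then lower. It put 13 enzymes and 15 of the 28 genes wholly below the controls, against 12.2% of all genes.

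Among the squalene and sterol enzymes 1 of 11 fell and 10 had a lower mean, against 0.502% and 36.5% of all tested genes. Cyp51 encodes lanosterol 14-alpha-demethylase, an early step after the sterol rings are closed. Its FPKM was 39.7, 31.6 and 25.8 in controls 1, 2 and 3, 8.79, 9.80 and 9.19 in BPB, and 10.1, 19.2 and 8.37 in BPAF. Every exposed library lay below the lowest control, and the BPB libraries were close to each other. From 32.4 ± 6.97 FPKM in control to 9.26 ± 0.509 in BPB (SD, n = 3), Cyp51 fell by 1.68 on the log2(FPKM + 1) scale (SE 0.31, 95% interval -2.38 to -0.99, adjusted p = 0.0306 in limma). The recovered reads were 3241, 2373 and 1764 in control and 694, 828 and 667 in BPB. The difference stayed between -1.83 and -1.53 with any 1 library of the pair of groups left out, but the call was lost each time, with adjusted p of 0.0556 (without control 3) to 0.128 (without BPB 3) in limma. In the gene models of GENCODE M21, Cyp51 shares 166 bases with Akap9 on the opposite strand, and the sources used here do not give whether the counting used strand.

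Squalene epoxidase, encoded by Sqle, is a slow step of the chain. It had 14.6, 14.98 and 5.99 FPKM in control, 4.29, 6.35 and 5.74 in BPB, and 4.41, 6.53 and 0.979 in BPAF. Controls 1 and 2 lay above all exposed libraries and control 3 among them, and the log2 difference in BPB was -0.91 (SE 0.50, adjusted p = 0.393 in limma). Msmo1 encodes the methyl sterol oxidase that acts after Cyp51. It had 9.31, 5.76 and 7.20 FPKM in control, 4.22, 4.59 and 4.68 in BPB, and 6.02, 4.52 and 0.925 in BPAF. The BPB libraries were all below the controls, with a log2 difference of -0.59 (SE 0.43, adjusted p = 0.536 in limma). The other members of this stretch overlapped between BPB and control. Their log2 differences were -0.78 for squalene synthase (Fdft1), -0.69 for Hsd17b7 and -0.52 for Nsdhl, which both work on the sterol C4 methyl groups, -0.45 for the desaturase Sc5d and -0.28 for the isomerase Ebp. Lanosterol synthase (Lss) and the reductase Tm7sf2 were near 0 at -0.08 and -0.06. Dhcr7, the 7-dehydrocholesterol reductase of the final reduction, was the enzyme with a higher mean in BPB, at 0.37 (SE 0.29, adjusted p = 0.569 in limma), with 3.40, 3.48 and 1.71 FPKM in control and 4.18, 4.31 and 3.23 in BPB.

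**Figure D3:**
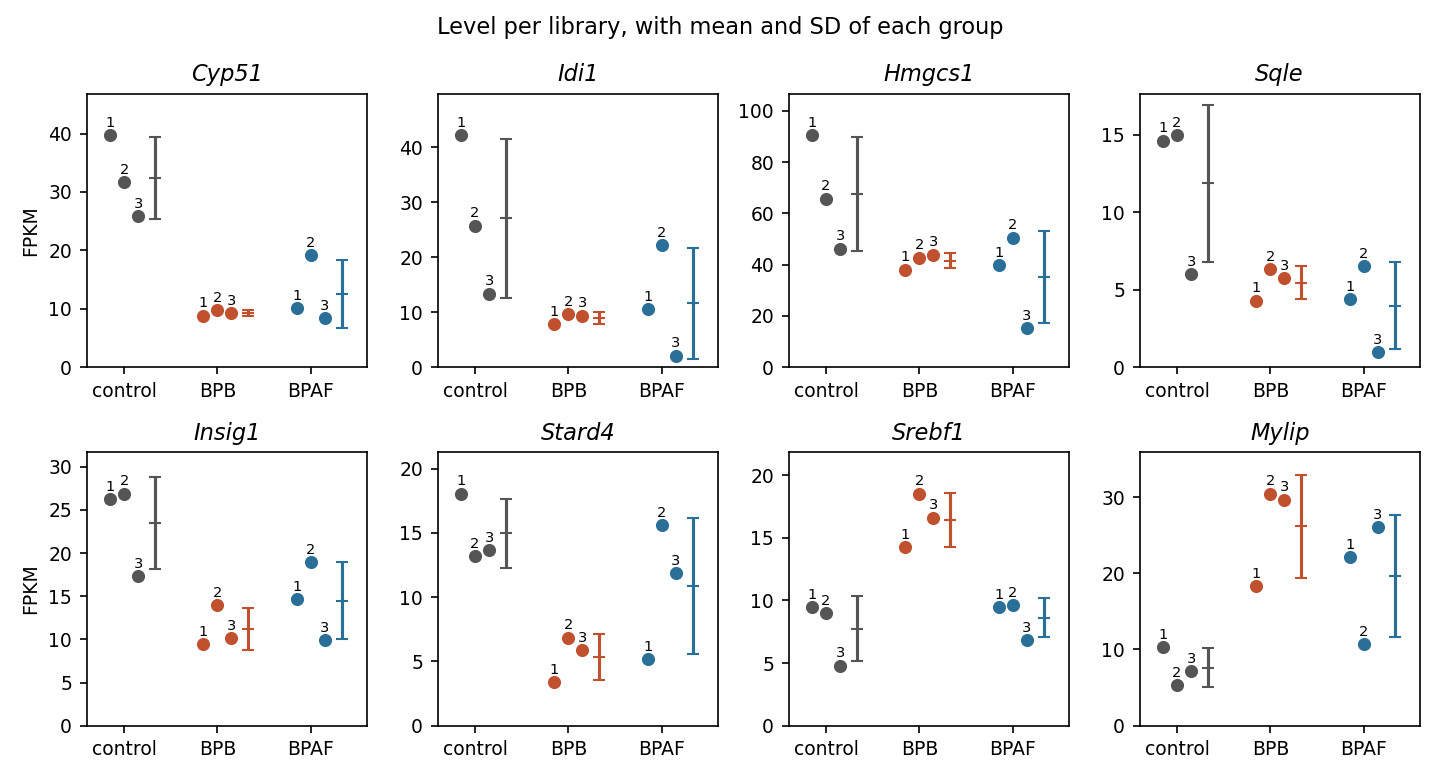
FPKM of Cyp51, Idi1, Hmgcs1, Sqle, Insig1, Stard4, Srebf1 and Mylip is shown for each library (points with the replicate number) with the group mean and SD (bars) for control, BPB and BPAF. The Cyp51 controls lie at 25.8 to 39.7 and all exposed libraries at 19.2 or less, whereas the BPB libraries of Srebf1 and Mylip lie above their controls.

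All 8 mevalonate pathway enzymes had lower means in BPB, against 36.5% of all tested genes, and none passed the test in limma. At an unadjusted p under 0.05 and lower there was 1 (Fdps), against 4.6% of all tested genes. For 6 the BPB libraries lay wholly below the controls, against 6.1% of all tested genes. Acat2, the acetyl-CoA acetyltransferase of the first condensation, had 23.5, 15.05 and 12.4 FPKM in control, 10.9, 8.88 and 8.58 in BPB, and 11.5, 22.4 and 10.2 in BPAF. Hmgcs1, the cytosolic HMG-CoA synthase, had 90.5, 65.7 and 46.2 FPKM in control, 38.1, 42.8 and 43.9 in BPB, and 39.8, 50.5 and 15.2 in BPAF. In both genes control 1 was the highest library and the BPB libraries lay just under control 3, with log2 differences of -0.74 (SE 0.34, adjusted p = 0.297 in limma) and -0.64 (SE 0.43, adjusted p = 0.501). Mvk and Pmvk, the kinases that phosphorylate mevalonate in succession, overlapped between the groups, at -0.15 and -0.30.

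Mvd encodes the decarboxylase that yields isopentenyl diphosphate. It had 37.2, 19.5 and 13.9 FPKM in control, 10.2, 11.0 and 8.85 in BPB, and 9.17, 20.7 and 3.74 in BPAF. Idi1, the isomerase that follows, had 42.2, 25.8 and 13.4 FPKM in control, 7.81, 9.70 and 9.36 in BPB, and 10.6, 22.2 and 2.12 in BPAF. Both genes spread widely within control and were tight within BPB, and their log2 differences were -1.04 (SE 0.53, adjusted p = 0.347 in limma) and -1.36 (SE 0.66, adjusted p = 0.326).

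Fdps makes farnesyl diphosphate, from which the sterol branch leaves. It had 20.5, 12.8 and 12.6 FPKM in control, 5.61, 7.74 and 5.53 in BPB, and 7.34, 13.0 and 2.00 in BPAF. The BPB libraries were all below 8 FPKM and the controls all above 12, with a log2 difference of -1.14 (SE 0.49, unadjusted p = 0.0453, adjusted p = 0.274 in limma). Ggps1 makes geranylgeranyl diphosphate, used to anchor small GTPases to membranes. It had 17.1, 16.0 and 18.4 FPKM in control, 13.5, 13.6 and 11.8 in BPB, and 17.3, 12.4 and 17.7 in BPAF. The controls were close together here and the BPB libraries lower by a small step, at -0.38 (SE 0.22, adjusted p = 0.409 in limma). In GENCODE M21 Fdps shares exons with Gm43738 of the same strand, which makes its value uncertain. There 11 of the 28 genes share exonic bases with another gene, among them Hmgcs1, Idi1, Ggps1, Fdft1 and Srebf1, and are uncertain to that extent.

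Promoter sequence is shown for the enzymes with the smallest p in BPB against control that are in the promoter table used here, because SREBP2 is known to act at these promoters together with NF-Y, which binds CCAAT. Of the 6 enzymes with the smallest p, Fdps and Sqle are not shown. Each run is the 250 bases before the annotated start, 5′ to 3′ on the strand of the gene, from RefSeq on GRCm38.p6. Capitals mark CCAAT, read as ATTGG when on the other strand, and TCACNCCAC, a short form of the sterol regulatory element. Hmgcs1 was added after its match was seen.
Cyp51, chr5:4104698-4104947, minus strand: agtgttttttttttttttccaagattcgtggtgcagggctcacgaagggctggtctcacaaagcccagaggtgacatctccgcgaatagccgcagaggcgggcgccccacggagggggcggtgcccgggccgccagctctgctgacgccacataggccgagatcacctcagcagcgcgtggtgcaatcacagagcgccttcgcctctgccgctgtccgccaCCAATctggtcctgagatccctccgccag
Mvd, chr8:122443423-122443672, minus strand: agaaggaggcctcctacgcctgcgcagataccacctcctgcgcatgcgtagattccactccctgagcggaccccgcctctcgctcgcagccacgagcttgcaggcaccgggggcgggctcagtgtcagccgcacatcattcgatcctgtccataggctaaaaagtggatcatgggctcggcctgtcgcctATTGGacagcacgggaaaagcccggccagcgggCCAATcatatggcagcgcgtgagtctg
Idi1, chr13:8885356-8885605, plus strand: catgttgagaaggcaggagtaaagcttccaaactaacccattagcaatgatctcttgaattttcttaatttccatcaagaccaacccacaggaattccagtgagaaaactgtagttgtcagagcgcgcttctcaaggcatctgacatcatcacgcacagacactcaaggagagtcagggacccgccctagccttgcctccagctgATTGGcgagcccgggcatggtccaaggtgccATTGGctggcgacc
Acat2, chr17:12960726-12960975, minus strand: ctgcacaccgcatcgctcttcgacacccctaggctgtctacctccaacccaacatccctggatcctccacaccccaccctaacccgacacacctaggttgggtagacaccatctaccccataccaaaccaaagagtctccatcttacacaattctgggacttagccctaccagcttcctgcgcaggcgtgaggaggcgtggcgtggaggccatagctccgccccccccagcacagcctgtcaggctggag
Hmgcs1, chr13:119690101-119690350, plus strand: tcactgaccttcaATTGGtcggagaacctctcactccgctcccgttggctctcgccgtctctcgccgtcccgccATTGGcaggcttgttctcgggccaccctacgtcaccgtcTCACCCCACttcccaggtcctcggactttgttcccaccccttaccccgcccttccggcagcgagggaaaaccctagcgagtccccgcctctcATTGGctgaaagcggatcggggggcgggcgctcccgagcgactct
The Hmgcs1 run was the single window with TCACNCCAC among those of the 23 genes that had an entry, as TCACCCCAC beginning 137 bases before the start, beside 3 copies of ATTGG. Cyp51 had 1 CCAAT, beginning 29 bases before the start, Mvd had 1 on each strand, Idi1 had 2 on the other strand and Acat2 had none. Sterol regulatory elements that depart from TCACNCCAC were not searched for or marked. A run without a match, such as that of Cyp51, therefore cannot be said to lack the element.

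Across the 23 genes of the 28 with an entry, which gave 31 windows, CCAAT on either strand stood in 22 windows, or 71.0%, and in 33.8% of all 32851 promoter windows of the same length. The GC box GGGCGG, counted on both strands, stood in 24 windows, or 77.4%, and in 32.7% of all windows. TCACNCCAC stood in 3.23% of the windows of these genes and in 1.05% of all. A longer form of the sterol regulatory element stood in 0% and 0.0731%. These are matches of letters, counted without regard to overlap, and the genes that changed and those that did not were not compared. The set of all windows includes genes not detected here and was not matched for base composition.

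Of the 5 regulator genes, Insig1 lay wholly below the controls in BPB and Srebf1 wholly above, as 6.1% and 19.5% of all tested genes did. None of the 5 passed the test in limma, and these 2 had an unadjusted p under 0.05, against 4.6% lower and 12.8% higher of all tested genes. Insig1 encodes a protein that retains SCAP when sterols are plentiful, and is itself a classical SREBP target. It had 26.2, 26.9 and 17.3 FPKM in control, 9.42, 14.0 and 10.1 in BPB, and 14.7, 18.9 and 9.91 in BPAF. The BPB libraries were all below the lowest control, with means of 23.5 ± 5.34 and 11.2 ± 2.45 FPKM (SD, n = 3) and a log2 difference of -1.002 (SE 0.30, adjusted p = 0.121 in limma). Insig2, its partner that depends less on SREBP, was level, at 5.16 ± 0.845 FPKM in control, 5.35 ± 0.520 in BPB and 5.98 ± 1.65 in BPAF.

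Srebf1 encodes SREBP1, whose main isoform in liver and fat drives fatty acid synthesis. It had 9.46, 8.998 and 4.78 FPKM in control, 14.2, 18.5 and 16.6 in BPB, and 9.44, 9.64 and 6.82 in BPAF. All BPB libraries stood above every control and BPAF library, and the log2 difference from control was 1.04 (SE 0.28, 95% interval 0.40 to 1.67, adjusted p = 0.0922 in limma). Srebf2 itself ranged from 11.3 to 45.8 FPKM in control, 16.9 to 32.5 in BPB and 9.79 to 30.5 in BPAF. Its groups overlapped throughout, with a log2 difference in BPB of -0.13 (SE 0.58, 95% interval -1.42 to 1.17, adjusted p = 0.944 in limma). Scap, the escort, had a log2 difference of 0.62 in BPB (SE 0.34, adjusted p of 0.394 in limma) and overlapped because control 1 and 2, at 8.59 and 7.63 FPKM, exceeded BPB 1 at 7.56.

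Mylip and Stard4 had the widest gaps to control among the 4 genes of sterol transport and receptor turnover, again in opposite directions and with none passing the test in limma. Both had an unadjusted p under 0.05 in BPB, against 12.8% higher and 4.6% lower of all tested genes. Mylip encodes IDOL, a ubiquitin ligase induced by the sterol-sensing LXR receptors that marks lipoprotein receptors for degradation. It had 10.3, 5.28 and 7.19 FPKM in control, 18.3, 30.4 and 29.7 in BPB, and 22.1, 10.7 and 26.1 in BPAF. Every exposed library lay above every control, though BPAF 2 exceeded control 1 only narrowly, and the ratio of means in BPB was 3.44. The log2 difference in BPB was 1.67 (SE 0.38, 95% interval 0.82 to 2.51; limma, adjusted p = 0.0533). Stard4, a carrier of cholesterol through the cytosol and a known SREBP2 target, had 18.0, 13.2 and 13.7 FPKM in control, 3.39, 6.86 and 5.85 in BPB, and 5.18, 15.6 and 11.9 in BPAF. The BPB libraries were all well below the lowest control, with a log2 difference of -1.36 (SE 0.38, adjusted p = 0.103 in limma), whereas the BPAF libraries overlapped with control. Npc1 and Npc2, which release cholesterol from lysosomes, differed by 0.03 and 0.27 and overlapped with control in both exposed groups.

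**Figure D4:**
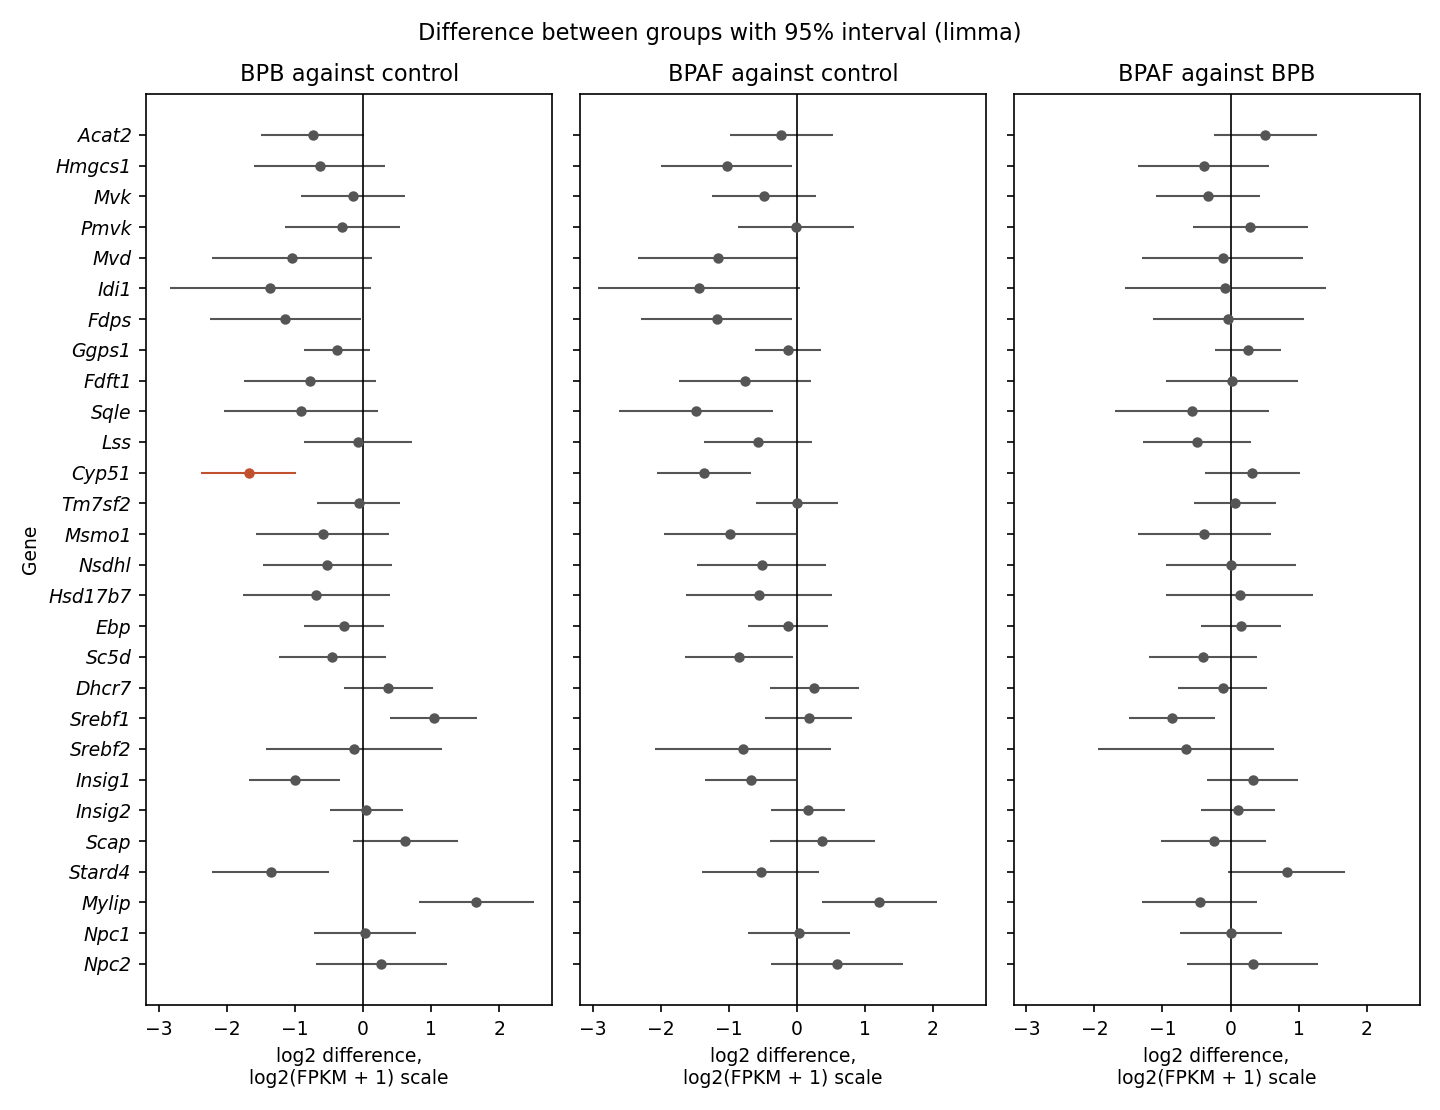
Points give the log2(FPKM + 1) difference of each of the 28 genes with its 95% interval from limma for BPB against control, BPAF against control and BPAF against BPB, with genes called at an adjusted p under 0.05 in orange. Cyp51 in BPB against control, at -1.68, is the called point, and the intervals of most genes in BPAF against BPB span 0.

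In BPAF uteri the enzymes of the chain also had lower means than in control, with more scatter between libraries and no call. Limma called 0 of the 28 genes, where it called 0.0218% of all tested genes, 0.00728% as higher and 0.0146% as lower. At an unadjusted p under 0.05 there were 8, of which 7 were lower and 1 higher, against 2.75% and 10% of all tested genes. Of the 19 enzymes 17 had a lower mean, where 29.9% of all tested genes did, and their median log2 difference was -0.57 against 0.21 for all tested genes. Every BPAF library lay below every control for 1 of the 28 genes, Cyp51, and above for 1, Mylip, against 2.5% and 14.3% of all tested genes. Scaling by median ratios moved the median of all genes from 0.21 to -0.04. It put 18 enzymes lower, where 7358 of the 13743 tested genes were then lower. It put 8 of the 28 genes wholly below the controls, against 6.94% of all genes, and put Mylip among those that overlapped. BPB and BPAF were set against the same 3 controls, so the 2 comparisons share them.

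Cyp51 averaged 12.6 ± 5.81 FPKM in BPAF and 32.4 ± 6.97 in control (SD, n = 3), with a log2 difference of -1.36 (SE 0.31, 95% interval -2.06 to -0.67, adjusted p = 0.230 in limma). BPAF 2, at 19.2 FPKM, was the nearest to the controls. Sqle had the widest difference of the 28, at -1.48 (SE 0.50, adjusted p = 0.309 in limma), and BPAF 3 alone was below 1 FPKM. Mylip had a log2 difference of 1.22 (SE 0.38; limma, adjusted p = 0.304). The other genes at an unadjusted p under 0.05 were Fdps (-1.18), Hmgcs1 (-1.03), Msmo1 (-0.98), Sc5d (-0.85) and Insig1 (-0.68), with adjusted p of 0.365 to 0.389 in limma. Mvd (-1.16) and Idi1 (-1.44) had large mean differences with an SE of 0.53 and 0.66. Dhcr7 was again on the other side of 0, at 0.26 (SE 0.29, adjusted p = 0.734 in limma), and Tm7sf2 was at 0.00, turning to -0.22 under scaling by median ratios.

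The 3 BPAF libraries differed from each other in how many enzymes lay under the control range. Below all 3 controls were 9 of the 19 enzymes in BPAF 1, 3 in BPAF 2 and 15 in BPAF 3, where 10.7%, 10.2% and 17.9% of all tested genes were. In BPB 1, 2 and 3 the numbers were 13, 8 and 10 of 19, against 14.4%, 16.0% and 18.4%. With any 1 library left out, 16 to 18 of the 19 enzymes had a lower mean in BPB and 15 to 18 in BPAF, a check chosen after the data were seen. Of all tested genes, 33.6% to 43.5% then had a lower mean in BPB and 27.7% to 38.5% in BPAF. The enzyme median in BPAF was -0.42 without BPAF 3, -0.40 without control 1 or control 2, -0.87 without BPAF 2 and -0.99 without control 3. In BPB it was -0.40 without control 1 and -0.88 without control 3. The median of all tested genes ran from 0.15 to 0.28 in BPAF and from 0.08 to 0.23 in BPB, lowest without control 3 in each.

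Between BPAF and BPB, given at the same dose and for the same time, the cholesterol genes had no common direction. This was 1 pair of compounds, tested in the same fit. Limma called 0 of the 28 genes, against 0.24% of all tested genes, and 1 had an unadjusted p under 0.05, lower in BPAF, against 4.81% lower and 1.94% higher of all tested genes. Means were higher in BPAF for 14 genes and lower for 14, where 40.9% of all tested genes were lower, and the median log2 difference was -0.01 against 0.07 for all tested genes. Srebf1 was the gene whose libraries did not overlap, with BPAF wholly below BPB, as for 6.41% of all tested genes, and no gene of the 28 lay wholly above, as 6.54% did. Its difference was -0.86 (SE 0.28, 95% interval -1.50 to -0.23, unadjusted p = 0.0129, adjusted p = 0.438 in limma), from 16.4 ± 2.15 FPKM in BPB to 8.63 ± 1.57 in BPAF (SD, n = 3). By p-value Stard4 came next, at 0.83 (95% interval -0.04 to 1.69, adjusted p = 0.755), and then Acat2, at 0.51 (95% interval -0.24 to 1.27, adjusted p = 0.939). By size, Srebf2 (-0.66) and Sqle (-0.57) lay between them. These intervals do not use the replicate numbers, whose pairing is an assumption. Within the 3 same-numbered pairs, Stard4 and Acat2 were higher in BPAF each time and Srebf1, Srebf2 and Lss lower each time, and limma with the replicate number as a block in these 6 libraries also called 0 of the 28. For Cyp51 the interval was -0.37 to 1.02, for Idi1 -1.55 to 1.41 and for Mylip -1.29 to 0.39, so each interval spans 0 and reaches past a 2-fold difference. In the joint test of the 3 groups limma called 0 of the 28, against 0.844% of all tested genes, and Cyp51 had the smallest adjusted p, 0.0695.

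Genes next to the cholesterol chain were close to the background of all tested genes in both exposed groups. Across 7 further lists with 81 genes, 78 of them tested, 1 gene rose in BPB, and 52 had a higher mean and 26 a lower one, with a median log2 difference of 0.16, where 36.5% of all tested genes had a lower mean and the median was 0.15. At an unadjusted p under 0.05 there were 8 higher and 4 lower, against 12.8% and 4.6% of all tested genes. In BPAF 56 had a higher mean and 22 a lower one, with a median of 0.18, where 29.9% of all tested genes had a lower mean and the median was 0.21. There limma called 0, and 8 had an unadjusted p under 0.05, all higher, against 10% of all tested genes. Between BPAF and BPB 0 were called by limma. There 2 had an unadjusted p under 0.05, each lower in BPAF, against 4.81% lower and 1.94% higher of all tested genes. Among 17 genes of fatty acid synthesis, the sister pathway under SREBP1, 15 had a higher mean in BPB and 2 a lower one, with a median of 0.39 against 0.15 for all tested genes. In BPAF 12 had a higher mean and 5 a lower one, with a median of 0.11 against 0.21. Thrsp, at 78.4, 30.9 and 3.09 FPKM in BPB 1, 2 and 3, had the order of the adipocyte markers there (means of 5.12, 4.07 and 2.35). Fads2, at 36.3, 64.3 and 83.8 FPKM, had the reverse order. The part of adipocytes in the levels of this list was not tested. Me1, the malic enzyme that supplies NADPH for lipid synthesis, rose. It had 15.8, 14.6 and 10.9 FPKM in control, 34.5, 31.7 and 31.0 in BPB, and 19.7, 11.9 and 17.9 in BPAF. The BPB libraries were all about 2-fold above the highest control, with a log2 difference of 1.19 (SE 0.25, adjusted p = 0.0466 in limma). The call on Me1 was lost without any 1 library of the comparison and under scaling by median ratios. In BPAF against BPB 13 of these 17 genes had a lower mean, with a median of -0.33. Of all tested genes 40.9% had a lower mean there, with a median of 0.07. For 4 of the 17 every BPAF library lay below every BPB library, and for 0 above, against 6.41% and 6.54% of all tested genes.

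Of the LXR and efflux genes 8 of 9 were tested. In BPB 5 had a higher mean and 3 a lower one, and in BPAF 6 and 2, where 36.5% and 29.9% of all tested genes had a lower mean. Their medians were 0.43 and 0.63, above the 0.15 and 0.21 of all tested genes. At an unadjusted p under 0.05 there were 1 higher and 1 lower in BPB, against 12.8% and 4.6% of all tested genes. In BPAF there were 3, all higher, against 10% of all tested genes. Pltp, a phospholipid transfer protein that LXR induces, had 6.91, 8.24 and 1.75 FPKM in control, 19.5, 14.2 and 15.9 in BPB, and 38.5, 7.17 and 36.6 in BPAF. All BPB libraries stood above the controls, whereas BPAF 2 stood among them, and neither difference passed the test (adjusted p = 0.243 and 0.304 in limma).

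The remaining lists had medians between 0.04 and 0.31 in BPB and none of their genes was called by limma. Among 16 tested genes of sterol uptake, storage and transfer, Lrp8, a lipoprotein receptor that binds reelin and apolipoproteins, had 1.87, 1.63 and 1.05 FPKM in control, 0.226, 0.234 and 0.110 in BPB, and 0.269, 1.71 and 0.0947 in BPAF. BPB was wholly below control while BPAF 2 stood among the controls, with a log2 difference in BPB of -1.07 (SE 0.34, adjusted p = 0.143 in limma). Among 13 genes of the isoprenoid branches, Nus1, a subunit of the enzyme that makes dolichol chains, differed by -0.75 in BPB (SE 0.27, adjusted p = 0.186). Among 10 genes of SREBP cleavage and sterol-regulated degradation, Pgrmc1, a heme-binding partner of sterol enzymes, averaged 101.2 ± 37.6 FPKM in control and 210.3 ± 22.6 in BPB (SD, n = 3), a log2 difference of 1.11 (SE 0.39, adjusted p = 0.178). Of 6 oxysterol and bile acid enzymes, the cholesterol 24-hydroxylase gene Cyp46a1 was at 0.188 FPKM or less in control, 0.876 to 1.55 in BPB and 0.711 to 4.41 in BPAF, with a log2 difference in BPAF of 1.25 (SE 0.40, adjusted p = 0.304 in limma).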

How the data were processed

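Messenger RNA of 9 mouse uterus libraries was sequenced from a stranded kit, per the labels' protocols, and the authors deposited 1 table of values per library. No header names the unit. The values were taken as FPKM computed by the authors, because for genes with a single transcript in GENCODE M21 the value times the length was a whole number of reads, within 0.01, for 84.8% to 86.7% of values. Aligner, counter, genome build and annotation: not given in the sources used here. The gene lengths implied by the recovered reads equalled the M21 exon length for 0 of the 28 genes, so levels are not compared between genes. Of 34745 lines, 126 with repeated symbols were left out.

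The 13743 genes that reached 1 FPKM in 3 libraries were tested with limma 3.58.1 (trend and robust) in R 4.3.3 on log2(FPKM + 1), a pseudocount of 1 that understates changes of weakly expressed genes. All 9 libraries entered 1 fit with group as the only term and 6 residual degrees of freedom. Tests were two-sided, adjusted by Benjamini-Hochberg over all tested genes and called at an adjusted p under 0.05. An exact test of 3 against 3 libraries cannot go below 0.1 and was not used. The fit was tested on simulated data.

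The 28 genes and all lists were chosen with earlier results of these data known. Values per library are given for genes that were called, whose exposed and control libraries did not overlap, or that were among the 3 smallest p of a comparison; other lists give called genes or the smallest joint p. Deviations of libraries with the same replicate number correlated in BPAF and BPB at 0.34, 0.34 and 0.48. These numbers were treated as pairs on that ground, from the data and not from the labels. Libraries with unlike numbers were not compared, so this pairing is an assumption. Control numbers had no positive correlation with either. Alternatives were other pseudocounts, filters, scaling, limma settings, thresholds, the replicate block and single libraries left out. Sequences came from RefSeq promoters on GRCm38.p6. Some related genes are not reported here.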

Additional observations from a re-analysis of the deposited data

How the results depend on the processing

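The direction of the median over the 28 genes held in BPB (-0.72 to -0.20) and BPAF (-0.77 to -0.21) against control under every alternative run, while that of BPAF against BPB ran from -0.23 to 0.16. The number of the 28 genes called in BPB was 1 as reported. It was 0 with a pseudocount of 0.01, with no filter, with 1 FPKM required in all 9 libraries (25 of the 28 tested) and with the replicate number as a block. It was 2 under scaling by median ratios (Cyp51 and Insig1), 2 with only the 6 libraries of the comparison (Cyp51 and Mylip) and 3 at an adjusted p under 0.1 (Cyp51, Mylip and Srebf1). Leaving out each library in turn gave 0 to 0. Cyp51 kept a difference of -1.94 to -1.53, with adjusted p of 0.0138 to 0.128 in limma. In the joint test the number was 0 as reported, 1 under scaling by median ratios, 1 at an adjusted p under 0.1, and 0 to 1 with a library left out, with Cyp51 called without BPAF 2. Of the other lipid genes 1 was called in BPB: 0 with pseudocounts of 0.1 and 0.01, no filter, the filter on all 9 libraries, median ratios or the replicate block, 0 to 0 with a library left out, 4 with only the 6 libraries and 3 at an adjusted p under 0.1. In BPAF against control and against BPB no gene of either set was called under any alternative. Over all tested genes limma called 351 in BPB, and 152, 66, 163 and 54 with pseudocounts of 0.1 and 0.01, no filter and the filter on all 9 libraries, 503 with only the 6 libraries, 774 at an adjusted p under 0.1, and 1 to 221 with a library left out. For BPAF against BPB it called 33, and 0 in the 6 libraries both with and without the block; that fit was added after seeing the data.

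The replicate numbers of controls and exposed libraries share only a number (correlations of -0.40 to -0.08), and with the replicate block limma called 19 genes in BPB over all tested genes. Cyp51 had an adjusted p of 0.0623 in that fit. No other call on the 28 genes changed with the block. The cause was not tested. With 3 libraries a group the precision is set by the spread between them.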
